A study of Mus musculus with 2 samples.

Results

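The nuclear factor I (NFI) family comprises 4 transcription factor genes, Nfia, Nfib, Nfic and Nfix, and their loci were followed in maps of open chromatin from mouse gastrocnemius, the main calf muscle. The 4 genes are members of 21853 protein-coding genes with an annotated protein-coding start, and they held 125 of the 68349 open sites found in both libraries. The family was chosen from earlier results of these data, for its dense open sites at Nfic and for the known role of Nfix in the muscle fibre programme. The number and density of sites at Nfic, and its rank among genes, are therefore given as a description only. A promoter site had its midpoint within 1 kb of a start, and a distal site either had its nearest start within 50 kb at a member or lay inside the member's gene body.

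DNase-seq cuts accessible DNA in isolated nuclei with DNase I and sequences the cut ends. Both libraries came from a single group, whole gastrocnemius of female B6CASTF1/J mice aged 14 days, an F1 hybrid of C57BL/6J and CAST, with no treatment named. The sample descriptions speak of "3x Females" with a different number for each library, and both carry the same donor record, so how many animals stand behind each library is not stated beyond that. Instruments are named for replicate 2 (HiSeq and NovaSeq models) but not for replicate 1, and any effect of the sequencing run cannot be told apart from that of the replicate. Reads of a hybrid were mapped to mm10, and both alleles are summed. With 1 group and 2 libraries no test was made; each value is given in both replicates, in the order replicate 1 then replicate 2.

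All 6 skeletal muscle marker genes had a shared promoter site, with a summed promoter signal of 45.8 and 36.3. Of the other cell types, 3 of 4 fibroblast markers (sum 15.2 and 16.3), 4 of 4 endothelial (7.17 and 5.68), 2 of 4 Schwann cell (13.1 and 11.95) and 3 of 3 neuron markers (7.72 and 6.64) had one. Sox10, which marks Schwann cells, had none, and neither did any of 4 macrophage and 3 hepatocyte markers. In whole tissue, sites open in fewer cells and sites less open in each cell cannot be told apart, and the part of each cell type in the values below was not tested.

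NFI proteins bind DNA as dimers. Each subunit reads TTGGC or close variants, and the full target is an inverted repeat of these letters with 5 bases in between; a single half-site can also be bound, more weakly. In muscle, Nfix is known for switching myoblasts from the embryonic to the fetal programme, where it activates Ckm and Eno3 and lowers slow myosin Myh7. Nfia and Nfib are best known from glia, lung and cartilage, and Nfic from tooth root formation.

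Sequences of the family's own open sites are shown first, beginning with those that hold a loose form of the NFI target. Searches covered both strands for the half-site TTGGCA, the loose palindrome TGGCNNNNNGCCA and the full palindrome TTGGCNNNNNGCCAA, on mm10. The full palindrome contains the loose one. The loose palindrome was found in 4 of the 125 sites (3.20%, 95% Wilson interval 1.25 to 7.94), so about as often as in all shared sites (3.10%), and the full form in none of the 125. These 4 sites follow, each on the strand of its gene, in lower case with bases inside a DNase footprint of both replicates in capitals. They lie at chr4:82690381-82690580 (Nfib, upstream of its open starts), chr4:82418375-82418511 (Nfib, intron 2), chr10:81435561-81435760 (Nfic, upstream of its open starts) and chr8:84744101-84744280 (Nfix, intron 2), all on the minus strand.
Nfib upstream palindrome site: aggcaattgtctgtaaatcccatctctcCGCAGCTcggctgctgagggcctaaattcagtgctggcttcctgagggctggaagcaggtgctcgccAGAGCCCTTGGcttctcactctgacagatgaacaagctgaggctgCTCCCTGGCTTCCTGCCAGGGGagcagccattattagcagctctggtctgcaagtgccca
Nfib intron palindrome site: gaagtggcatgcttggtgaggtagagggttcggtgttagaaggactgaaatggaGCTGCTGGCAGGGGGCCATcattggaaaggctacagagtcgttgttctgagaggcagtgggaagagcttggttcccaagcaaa
Nfic palindrome site: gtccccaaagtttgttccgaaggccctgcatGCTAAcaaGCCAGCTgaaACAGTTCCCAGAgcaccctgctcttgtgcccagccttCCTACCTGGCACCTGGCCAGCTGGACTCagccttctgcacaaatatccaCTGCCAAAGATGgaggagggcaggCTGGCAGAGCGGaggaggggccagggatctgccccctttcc
Nfix palindrome site: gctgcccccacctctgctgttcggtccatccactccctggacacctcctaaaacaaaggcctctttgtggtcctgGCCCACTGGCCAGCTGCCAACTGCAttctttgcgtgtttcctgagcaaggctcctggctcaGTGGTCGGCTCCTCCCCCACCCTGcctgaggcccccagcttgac
In all 4 the palindrome lay wholly inside a shared footprint. The Nfic and Nfix palindromes each overlapped an E-box CAGCTG, the letters read by the myogenic factors with their E-protein partners. The Nfix palindrome also overlapped a half-site. How often palindromes in all shared sites overlap these letters was not counted, so nothing particular to these genes can be read from it. The weak Nfib intron match overlapped letters resembling the core read by CTCF, a chromatin boundary protein (AGNNGGC on either strand, with A or G at the first N and G or T at the second). These letters occurred in 33.5% of all shared sites. Peak signal was 3.08 and 3.00 at the upstream Nfib site, 0.975 and 1.02 at the Nfib intron site, 4.47 and 3.65 at the Nfic site, and 5.44 and 4.83 at the Nfix site.

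A second set is shown because single half-sites crowd in it; it was chosen after the values were seen. Of all 68349 shared sites, 15 (0.0219%) held 4 or more half-sites, and 2 of these 15 were in intron 2 of Nfib, at chr4:82404421-82404600 and chr4:82400061-82400260. The other 13 each had a different gene at the nearest start. Intron 2 of Nfia held a site with 3 half-sites at chr4:97923981-97924180, a number reached by 118 of all shared sites (0.173%) and by 3 of the 125 family sites.
Nfib intron site with 4 half-sites, first: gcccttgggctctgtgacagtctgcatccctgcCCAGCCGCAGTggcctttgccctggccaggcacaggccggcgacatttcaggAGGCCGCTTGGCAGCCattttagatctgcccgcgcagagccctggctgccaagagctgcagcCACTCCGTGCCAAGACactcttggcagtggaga
Nfib intron site with 4 half-sites, second: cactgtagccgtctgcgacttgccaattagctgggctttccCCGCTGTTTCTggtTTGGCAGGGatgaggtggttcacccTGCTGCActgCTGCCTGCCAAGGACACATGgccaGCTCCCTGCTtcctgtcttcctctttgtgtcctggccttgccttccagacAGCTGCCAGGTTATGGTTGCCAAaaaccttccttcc
Nfia intron site with 3 half-sites: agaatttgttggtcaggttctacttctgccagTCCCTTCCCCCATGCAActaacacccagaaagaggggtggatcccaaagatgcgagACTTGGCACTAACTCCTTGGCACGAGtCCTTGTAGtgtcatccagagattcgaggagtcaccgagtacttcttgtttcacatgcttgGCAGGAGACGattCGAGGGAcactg
Shared footprints overlapped 2 of the 4 half-sites of the first Nfib site, 3 of 4 in the second and all 3 in the Nfia site. In the Nfia site a single footprint covers a pair of half-sites in the same orientation. Signal was 3.25 and 3.04 at the first Nfib site, 5.20 and 4.19 at the second, and 4.39 and 2.67 at the Nfia site. The Nfia value was lower in replicate 2 by more than at most of the family's sites.

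The third set holds strong sites named by their rank: the strongest promoter site of Nfia (chr4:97772181-97772400, plus strand), and the strongest distal sites of Nfia (chr4:97868941-97869140, plus strand), Nfic (chr10:81432961-81433080, minus strand) and Nfix (chr8:84810961-84811160, minus strand). The strongest Nfix promoter site, chr8:84773861-84774120, lies wholly in an annotated UTR and is not printed.
Nfia strongest promoter site: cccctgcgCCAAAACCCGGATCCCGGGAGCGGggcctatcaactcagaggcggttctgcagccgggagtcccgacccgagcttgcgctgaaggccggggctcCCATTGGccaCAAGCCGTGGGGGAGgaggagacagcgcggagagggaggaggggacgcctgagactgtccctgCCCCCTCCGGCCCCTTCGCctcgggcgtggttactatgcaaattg
Nfia strongest distal site: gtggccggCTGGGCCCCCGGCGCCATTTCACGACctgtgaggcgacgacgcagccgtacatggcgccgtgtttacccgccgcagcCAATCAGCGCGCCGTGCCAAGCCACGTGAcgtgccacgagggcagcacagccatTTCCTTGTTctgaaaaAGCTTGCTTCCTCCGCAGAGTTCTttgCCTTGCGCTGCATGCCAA
Nfic strongest distal site: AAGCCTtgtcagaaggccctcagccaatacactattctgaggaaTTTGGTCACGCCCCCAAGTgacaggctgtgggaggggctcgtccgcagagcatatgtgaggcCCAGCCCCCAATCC
Nfix strongest distal site: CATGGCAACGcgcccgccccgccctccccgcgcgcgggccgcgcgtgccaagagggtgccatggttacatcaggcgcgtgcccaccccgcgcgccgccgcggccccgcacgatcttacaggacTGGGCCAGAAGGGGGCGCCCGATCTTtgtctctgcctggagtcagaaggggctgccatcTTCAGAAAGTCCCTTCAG
The Nfia distal site held 2 half-sites and an E-box CACGTG, all of them overlapping shared footprints. The Nfia promoter site held none of the 16 motifs searched. In the Nfix site a shared footprint overlapped the CTCF-like letters, while its half-site lay outside the shared footprints.

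Each member had open promoters, but not at the starts of every isoform. The family's 22 annotated protein-coding starts fall into 12 groups when starts within 500 bp are joined, and 9 of these 12 (75.0%) had a promoter site in both replicates. Over all protein-coding genes 47.9% of start groups had one, and 62.5% of genes had at least 1 such promoter.

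Nfia lies on chr4:97772734-98118874, plus strand, and had the strongest promoter of the family. Its signal was 25.6 and 20.7 (mean 23.1 ± 3.47, SD, n = 2), at percentile 97.5 of protein-coding genes. This site belonged to the first start group at 97772734, which a single transcript, Nfia-208, uses. The second group lies 4.87 kb downstream, at 97777608 to 97777834, and 5 transcripts start there, among them Nfia-202, the reference used for intron numbers. The 3 shared sites of this group were also promoter sites of another gene, E130114P18Rik. The strongest peaks of the group reached only 2.13 in replicate 1 and 1.94 in replicate 2, at a different site in each. The third group, at 97880119 in intron 2, had no strict peak in either replicate. RefSeq places a curated Nfia start farther upstream, at 97581943, and no peak of either list was found within 1 kb of it.

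Nfib lies on chr4:82290173-82705750, minus strand, and its promoter signal was 14.2 and 13.5 (mean 13.8 ± 0.476, SD, n = 2; percentile 85.7). All of it came from the second start group, at 82505308 to 82505770, from which 6 transcripts begin. The first group, at 82705750 and 199.98 kb farther upstream, belongs to 1 transcript and had no peak of either list in either replicate. The 2 libraries were close here, differing by less than at the Nfia promoter.

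Nfix lies on chr8:84699876-84800344, minus strand, and had all 3 of its start groups open, or 2 of 3 with a promoter window of 500 bp. The upstream group, at 84800024 to 84800344, gave 4.32 and 4.81, with the highest peak at a different site in each replicate. The remaining groups, at 84774369 and 84773396, share the strongest site, with 8.27 and 7.01 (mean 7.64 ± 0.887, SD, n = 2; percentile 68.7). Between the upstream group and these, RefSeq lists starts at 84781705, at 84780077 to 84780087 and at 84779214, and none of these had a peak within 1 kb. A further RefSeq group in this interval, at 84775828 to 84776014, had a shared site of 2.49 and 1.73.

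Nfic lies on chr10:81396186-81455635, minus strand, and had the lowest promoter signal of the family, 5.86 and 4.70 (mean 5.28 ± 0.824, SD, n = 2; percentile 60.6). It was spread over 3 open groups of similar height. The group at 81431005 gave the values above, the group at 81427114 to 81427187 gave 3.87 and 4.56, and the internal group at 81407641 gave 3.70 and 3.48. The first of these was higher in replicate 1 and the second in replicate 2. The gap between them was wide in replicate 1 (5.86 against 3.87) and narrow in replicate 2 (4.70 against 4.56). The most upstream group, at 81455635, had a strict peak in replicate 2 alone, with a signal of 0.412. By strongest promoter the order was Nfia, Nfib, Nfix, Nfic in both replicates, with no overlap between neighbours. This order depends on the promoter window: within 500 bp Nfib fell to 4.53 and Nfic to 4.22 (means of both replicates), both below Nfix, and within 2500 bp Nfic rose to 10.7, above Nfix.

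**Figure D1:**
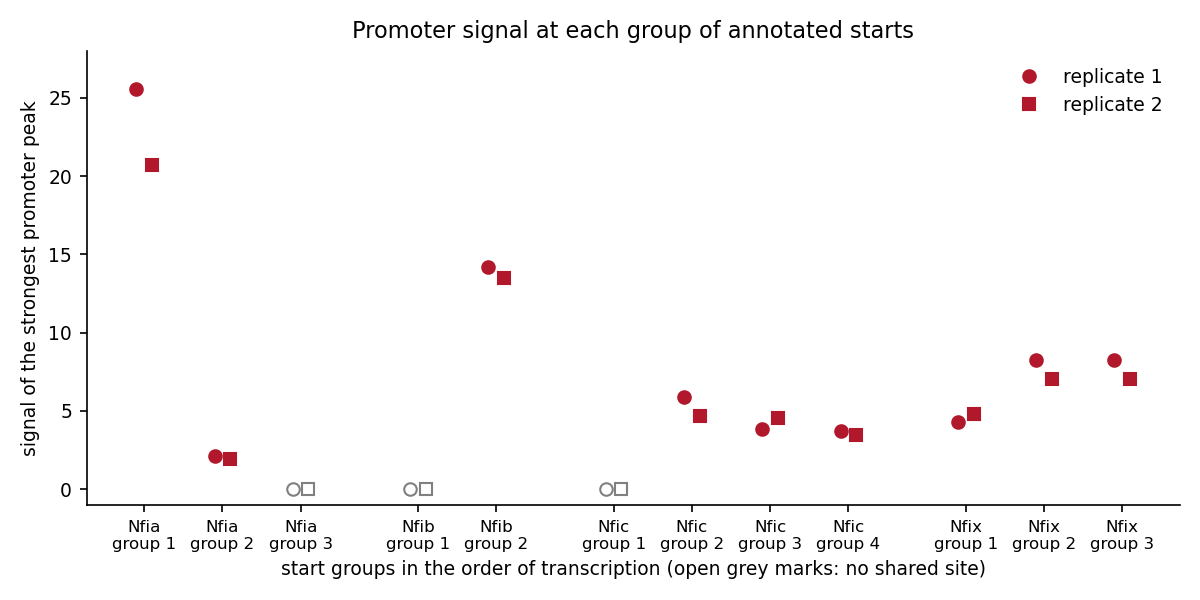
Signal of the strongest promoter peak (the authors' peak signal, vertical axis) at each of the 12 start groups, with replicate 1 as circles and replicate 2 as squares. Open grey marks at 0 are the 3 groups with no shared site; the first Nfia group stands highest at 25.6 and 20.7, while the second Nfia group is at 2.13 and 1.94.

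Distal sites were many at all 4 genes: 30 at Nfib, 27 at Nfic, 24 at Nfia and 22 at Nfix, against a median of 1 over protein-coding genes. At Nfix and Nfia they include sites inside the gene body whose nearest start belonged to another gene. Each count stands above percentile 99.7 of these genes, a rank that the choice of the family uses in part. Gene length differs greatly, from 59.5 kb for Nfic to 415.6 kb for Nfib. Inside the gene bodies the density was 45.4 distal sites per 100 kb at Nfic, 20.9 at Nfix, 7.22 at Nfib and 5.20 at Nfia. The share of the gene body with a cut rate below a false discovery rate of 0.05 was 33.6% and 43.1% at Nfic, 19.97% and 14.4% at Nfix, 4.02% and 3.74% at Nfib, and 4.17% and 3.41% at Nfia. Replicate 2 was the higher library at Nfic and the lower one at the other 3 genes.

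**Figure D2:**
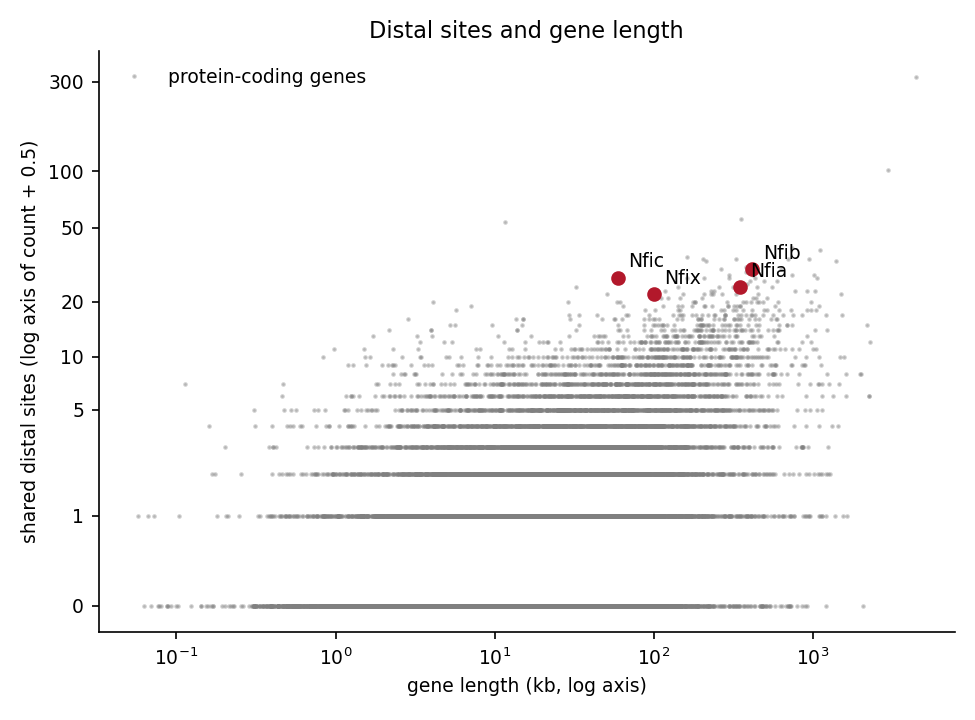
Number of shared distal sites (log axis of count + 0.5) against gene length in kb (log axis) for protein-coding genes in grey, with the 4 NFI genes in red. Nfic reaches 27 sites in 59.5 kb, while Nfib holds 30 in 415.6 kb.

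Strength among distal sites differed between members. At Nfix the 22 sites ranged from 2.03 to 9.51 in replicate 1 and from 1.99 to 8.73 in replicate 2, so none was below 1 in both libraries. Nfic was split: 9 of its 27 sites (33.3%) were below 1 in both and 8 (29.6%) above 5 in both, beside 18.1% and 5.82% of all distal sites. Nfia ranged from 0.488 to 20.3 and from 0.538 to 15.2, and Nfib from 0.692 to 18.2 and from 0.784 to 14.3. Median signal was 3.93 and 3.22 at Nfix, 3.60 and 3.65 at Nfic, 2.46 and 1.84 at Nfia, and 1.66 and 1.54 at Nfib, against 1.65 and 1.47 over all distal sites. The 2 genes with dense sites thus had higher medians than the 2 long genes in both libraries.

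The strongest Nfia distal site, in intron 2, had a signal of 20.3 and 15.2, below the Nfia promoter in both libraries. Next came 2 sites upstream of the gene, at chr4:97751101-97751260 with 10.9 and 10.2 and at chr4:97751801-97751980 with 6.16 and 5.38. A further pair lay at chr4:98109141-98109300, in intron 10, with 4.88 and 4.04, and at chr4:97775121-97775280, between the first and second start groups, with 4.36 and 4.45. These upstream sites are among 6 outside the gene body, the other 18 being inside it.

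At Nfib the strongest distal site exceeded the promoter in both replicates. It lies 7.53 kb upstream of the open starts, at chr4:82513161-82513440, with 18.2 and 14.3. The next were 2 intron 2 sites, chr4:82447341-82447500 with 8.34 and 6.02 and chr4:82400061-82400260, the second of the half-site clusters shown above. They were followed by chr4:82592761-82592940 with 4.16 and 2.92 and chr4:82542241-82542400 with 3.94 and 2.94. Of the 30 distal sites, 20 lay upstream of the open starts, in the long intron of the transcript whose own start had no peak, and 10 downstream.

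The 5 strongest Nfic distal sites were of nearly equal height. The first, chr10:81432961-81433080, lies 2.02 kb upstream of the start at 81431005 and had 11.7 and 9.72. It was followed by 3 sites in intron 2, chr10:81413941-81414160 with 11.6 and 9.74, chr10:81416901-81417200 with 10.4 and 8.22, and chr10:81411581-81412220 with 10.2 and 8.16. The last, in intron 3 at chr10:81408881-81409080, had 9.16 and 7.15. Pairs of overlapping footprints, 1 from each replicate, numbered 11 at both chr10:81416901-81417200 and chr10:81411581-81412220. The former had 9 footprints in replicate 1 and 11 in replicate 2, the latter 11 and 13. The median distal site of the family had 2 such pairs. These Nfic sites span 300 and 640 bp, against a median width of 200 bp at the family's distal sites. The weak Nfic sites included wide ones: chr10:81418861-81419903 spans 1043 bp with 0.523 and 0.479 and no shared footprint.

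The strongest Nfix distal site, 10.7 kb upstream at chr8:84810961-84811160, had 9.51 and 8.73 and is the single distal site outside the gene body. Between the upstream and downstream promoters lay chr8:84788981-84789180 with 8.85 and 8.19. Intron 2 held chr8:84742721-84742960 with 7.14 and 5.43. The same intron held chr8:84737661-84737860 with 6.10 and 5.46, and intron 10 held chr8:84709281-84709480 with 6.64 and 4.84. A further 3 sites inside Nfix were promoter sites of the nested genes G430095P16Rik and Lyl1 and were not counted for Nfix. All 8 intron 2 sites of Nfix, and every distal site farther downstream, were nearer to a start of these genes than to one of Nfix. They were counted for Nfix because they lay inside its gene body.

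**Figure D3:**
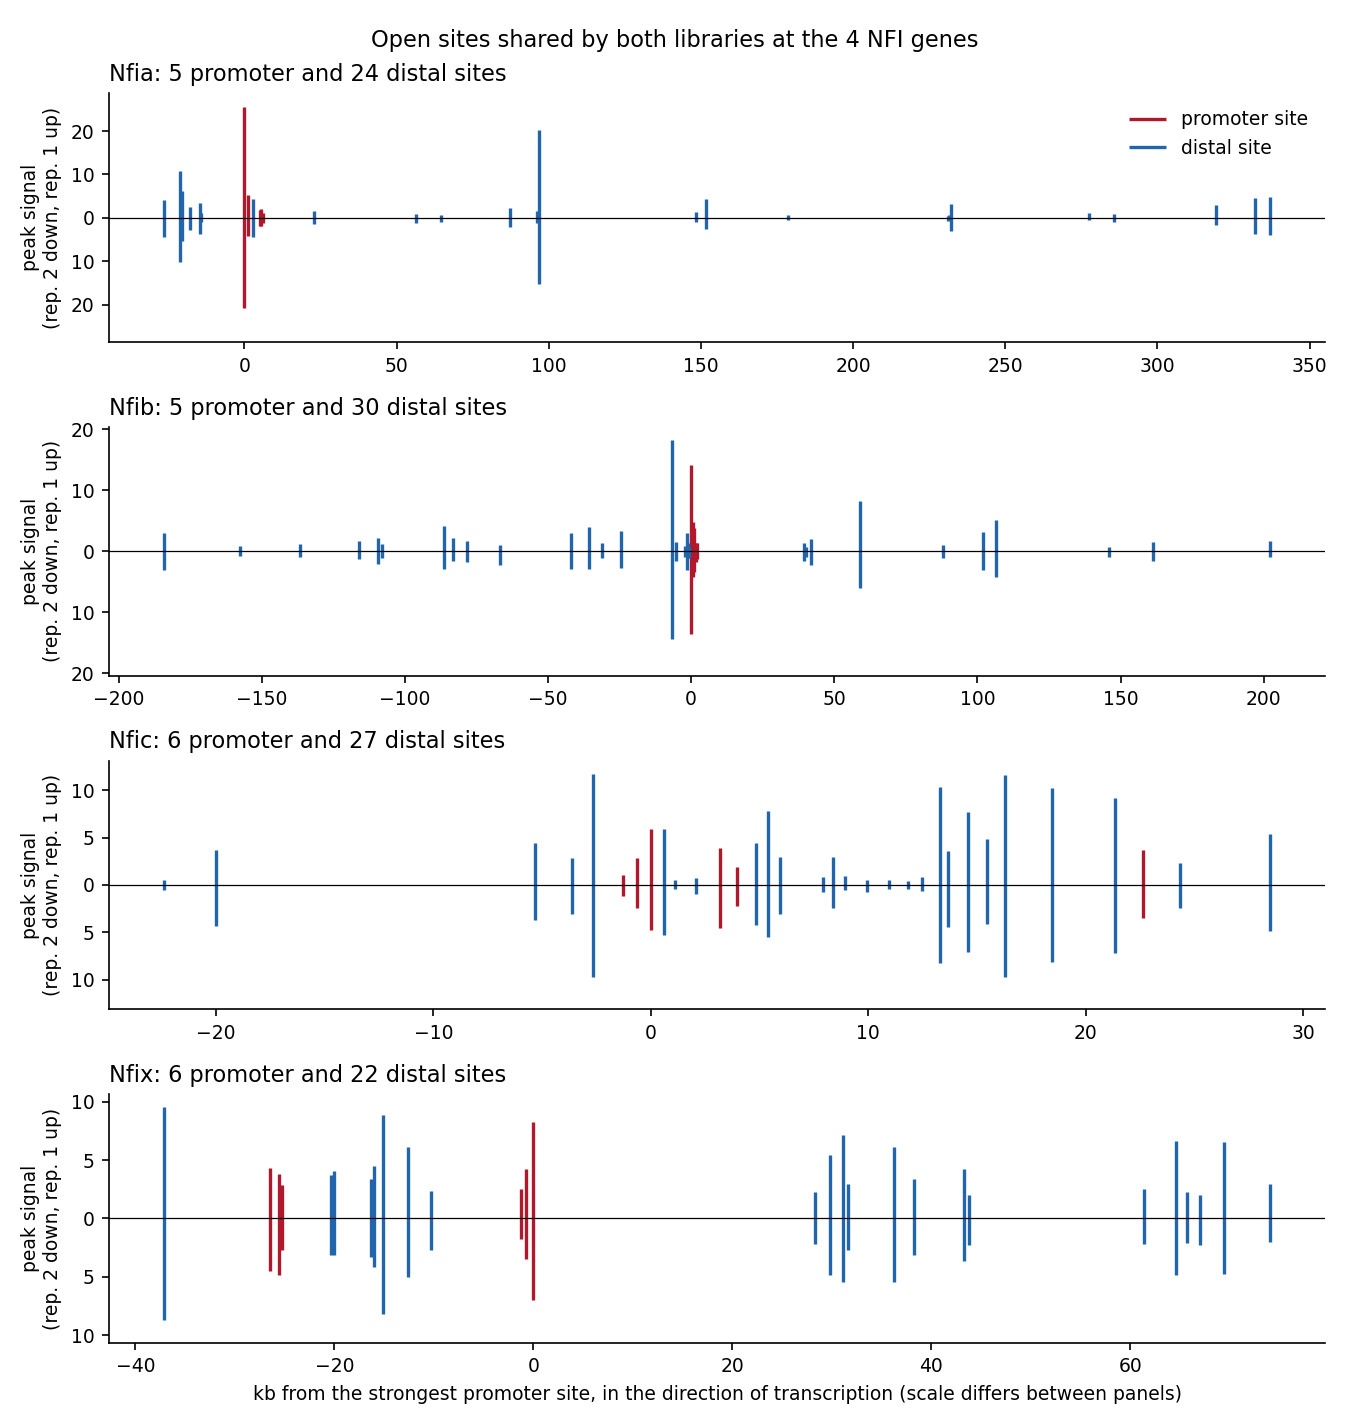
Sites shared by both libraries at each gene, with peak signal of replicate 1 upward and of replicate 2 downward, against distance in kb from the strongest promoter site in the direction of transcription (promoter sites red, distal sites blue; scales differ between panels). Nfib has a distal site of 18.2 and 14.3 just upstream of its promoter, and Nfic has its sites packed within its 59.5 kb.

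Sites in intron 2 were similar in number at the 4 genes. In the reference transcripts of all 4 genes it follows an exon of 532 coding bp, a length shared by the family. Intron 2 measured 172.8 kb in Nfia, 114.6 kb in Nfib, 43.8 kb in Nfix and 10.6 kb in Nfic, yet it held 9, 7, 8 and 9 shared sites, respectively. Together these were 33 of the 125 family sites. The density in intron 2 was 5.21 sites per 100 kb in Nfia, 6.11 in Nfib and 18.3 in Nfix, close to or below that of distal sites over the whole gene body given above. In Nfic it was 85.0. Intron 2 makes up 49.9% of Nfia, 27.6% of Nfib, 43.6% of Nfix and 17.8% of Nfic. Other introns were denser, sparser or empty. Intron 4 of Nfia had 21.8 sites per 100 kb and intron 1 of Nfic 111.5. Intron 3 of Nfib had 4.20 and intron 9 of Nfic 43.9, while intron 3 of Nfia, 43.95 kb long, held 0.

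Replicates gave close values at the family's sites. After centring on the median log2 ratio of replicate 2 over replicate 1 across all shared sites (-0.14), 124 of 125 sites were within 2-fold. The exception was the Nfib site chr4:82573061-82573240, at 1.06 and 2.24. The SD of the log2 ratio was 0.30 both at the family's sites and over all shared sites. Strict peaks present in 1 replicate alone were uneven among members: among distal peaks there were 17 in replicate 1 and 10 in replicate 2 at Nfix, 1 and 14 at Nfic, 8 and 3 at Nfia, and 5 and 2 at Nfib. Most were weak, with a median signal of 0.516 for the 17 at Nfix and 0.405 for the 14 at Nfic. Distal counts at these 2 genes thus depend on the library: replicate 2 alone gave 45 at Nfic, and replicate 1 alone 40 at Nfix.

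**Figure D4:**
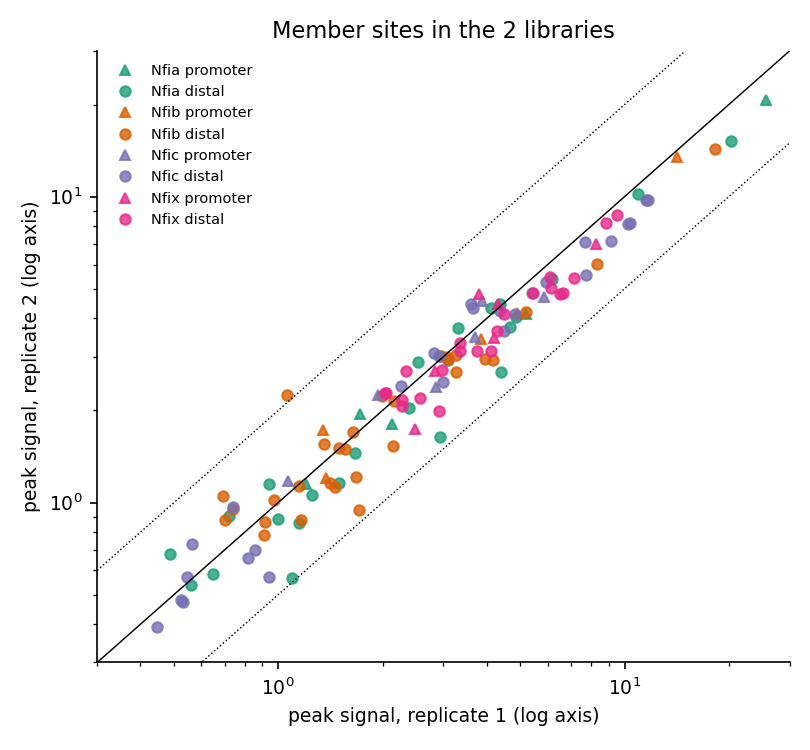
Peak signal in replicate 2 against replicate 1 (both log axes) at the 125 shared sites of the 4 genes, with triangles for promoter and circles for distal sites; the solid line marks equal values and dotted lines a 2-fold difference. Values lie near the line over the whole range, and the Nfib site at 1.06 and 2.24 lies above the upper dotted line.

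The half-site TTGGCA was found in 29 of the 125 sites (23.2%, 95% Wilson interval 16.7 to 31.3), beside 16.7% of all shared sites. The interval includes the background. Distal sites held most matches, 25 of 103 (24.3%, interval 17.0 to 33.4) against 20.2% of all distal sites. By gene the share was 9 of 28 at Nfix, 7 of 29 at Nfia, 8 of 35 at Nfib and 5 of 33 at Nfic, and these intervals overlap widely. A half-site overlapped a shared footprint in 17 sites (13.6%, interval 8.67 to 20.7), beside 8.30% of all shared sites. Family sites were more often distal than all shared sites. Within each class the family share was still the higher one, with the background inside a wider interval. It was 14.6% of distal sites (9.03 to 22.6) against 10.4%, and 9.09% of promoter sites (2.53 to 27.8) against 3.75%. The part of site class in the difference was not tested. Among sites with a half-site, 7 of 9 at Nfix, 3 of 7 at Nfia, 4 of 8 at Nfib and 3 of 5 at Nfic were of this kind, beside 49.6% over all shared sites, which lies inside each of the 4 intervals. Intervals cover counting error over sites only, and sites of 1 gene share a locus.

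Of the other motifs searched, some stood near the share over all shared sites and some did not. The E-box CAGCTG was in 32 of 125 sites (25.6%) against 25.3%. The other E-box searched, CACGTG, which factors such as the clock proteins and USF read, was in 16 (12.8%, interval 8.03 to 19.8) against 5.53%. Its share was higher among distal sites (10.7% against 4.28%) and promoter sites (22.7% against 8.21%) alike. A match overlapped a shared footprint in 2 of the 16 sites. This footprint count, like that of the TEAD motif below, is given without a share over all shared sites. Neither count can therefore say whether the family differs from other sites. The GC-rich SP/KLF core GGGCGG was in 40 sites (32.0%) against 28.7%, and among distal sites in 23 of 103 (22.3%, interval 15.4 to 31.3) against 13.2%. Median GC content was 57.6% at the family's distal sites and 54.4% over all distal sites, and its part in these shares was not tested. A match anywhere in a site counts, so motif shares, also those of the half-site above, depend on site width. Median width was 200 bp at the family's distal sites and 180 bp over all distal sites. At promoter sites it was 273 bp and 220 bp, and the part of width was not tested. The TEAD motif GGAATG, read by the effectors of the Hippo pathway, was in 5 (4.0%, interval 1.72 to 9.02) against 11.3%, with 4 of the 5 at Nfic and none overlapping a shared footprint. The ETS motif CCGGAAG was in none of the 125 sites, which allows up to 2.98% by the same interval, against 5.46%. Motifs were 16 in number, with no correction for that, and these intervals are a description.

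Footprints, stretches of low cutting inside an open site, were called at a false discovery rate of 0.01 by the authors. A footprint in both replicates was present in 111 of the 125 sites (88.8%, interval 82.1 to 93.2), and in 88.1% of all shared sites. Nfix had one in 27 of 28 sites, Nfib in 33 of 35, Nfia in 26 of 29 and Nfic in 25 of 33. Of the 6 family sites with no footprint in either replicate, 4 were at Nfic, which also held 9 distal sites below a signal of 1.

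How often footprints cover the family's own target was then counted over all shared sites. The inverted letters TGGC and GCCA were searched with 0 to 12 bases between them. With 5 bases, the NFI spacing, 1991 of 2149 matches (92.6%, interval 91.5 to 93.7) overlapped a shared footprint and 72.9% lay wholly inside one. With 4 bases the shares were 36.0% and 4.55%, and with 6 bases 42.7% and 6.86%, so the neighbouring spacings fell outside the interval by a wide margin. Matches with 5 bases were also more numerous, 2149 against 924 with 4 and 773 with 6. With no base between them 75.0% overlapped and 61.6% lay inside. Spacings of 1 and of 9 to 12 had 50.1% to 55.2% overlapping, and 2 to 8 other than 5 had 32.8% to 42.7%. Leaving out the 236 matches that overlapped CTCF-like letters gave 93.0% of 1913. Single half-sites overlapped a shared footprint in 46.9% of 12912 matches and CAGCTG in 21.9% of 21235. The half-site and CAGCTG are 6 bases long, against 13 for the pair spaced by 5 and 8 to 20 over all spacings. A longer match overlaps a footprint more easily and lies wholly inside one less easily. The shares were not corrected for length. Sequence letters alone do not say which NFI protein, or whether any, was bound.

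**Figure D5:**
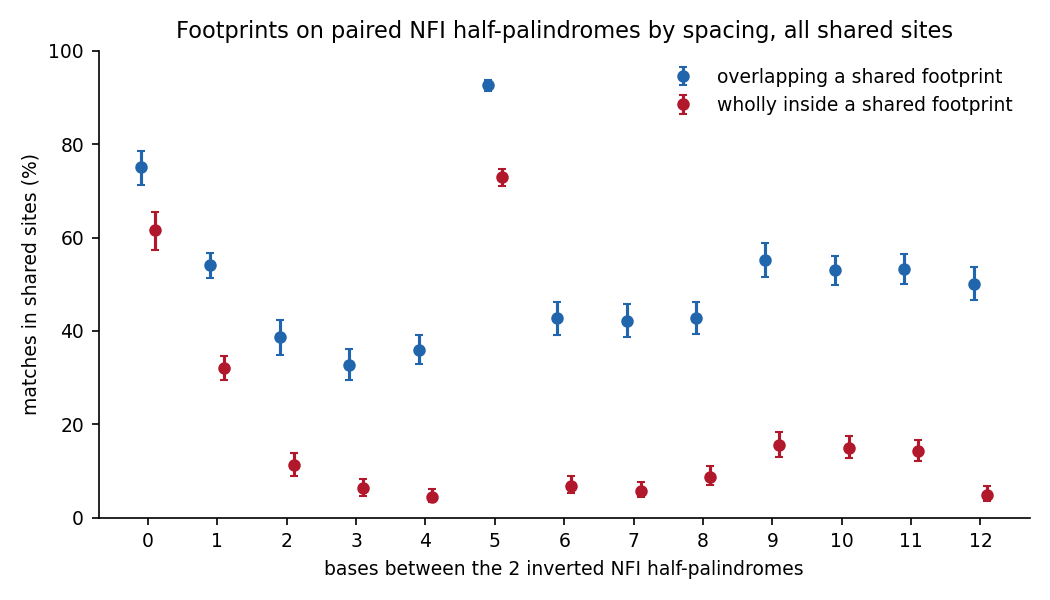
Share of matches (%) to the inverted NFI half-sites in all shared sites that overlap a shared footprint (blue) or lie wholly inside one (red), by the number of bases between them; bars are 95% Wilson intervals. The spacing of 5 stands at 92.6% and 72.9%, against 36.0% and 4.55% for 4 bases.

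Around the switch role of Nfix, 16 genes known as its regulators, partners or targets were read the same way. A shared promoter site was present at 13 of 16, beside 62.5% of all genes, and the median promoter signal was 7.17 against 2.73. Among upstream regulators, Jund had 26.0 and 21.3, Junb 12.02 and 10.55, and the kinase Rock1 26.6 and 20.1. Pax7, the satellite cell factor upstream of Nfix in fetal muscle, had a promoter peak in replicate 1 alone, at 1.59, but 10 distal sites. Among targets, Ckm, the muscle creatine kinase, had 13.1 and 8.99, and Eno3, the muscle enolase, 5.96 and 4.98. Sox6, a repressor of slow fibre genes, had 3.53 and 3.23 with 13 distal sites. Myh7, the slow myosin, and Mstn, the growth inhibitor myostatin, had no promoter peak in either library. Of the 96 sites of these genes 20 held a half-site (20.8%, interval 13.9 to 30.0), beside 16.7% of all shared sites, and 3, at Jund, Rock2 and Mstn, held the loose palindrome.

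The genes most like each member were those nearest in percentile rank of promoter signal, distal site number and length together, over both libraries. For Nfia these were Bcas3, Camta1 and Hivep3, at rank distances of 1.78 to 2.18. For Nfib they were Iqsec1 and Apbb2 (1.01 and 1.53), for Nfic Scarb1, Acot11 and Pald1 (1.61 to 1.91), and for Nfix Ccdc6, Fbxw8 and Ppargc1b (1.29 to 2.44). Genes close in rank still differed in number. Distal sites were 13, 34 and 26 at the genes named for Nfia, which had 24. They were 16 and 14 beside 30 at Nfib, and 19, 12 and 13 beside 27 at Nfic. For Nfix they were 13, 13 and 16 beside 22. Length differed too, with 944.6 kb for Camta1 and 346.1 kb for Nfia.

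The sites nearest to the limits used for sorting lay at differing distances from them. The Nfic site just inside the 1 kb promoter limit lay 743.5 bp from a start, with 1.94 and 2.25, and the one just outside lay 1107 bp away, with 0.742 and 0.964. At Nfib the sites on either side were at 877.5 bp (1.37 and 1.20) and 1509 bp (0.692 and 1.05). For Nfia they were at 717 bp (1.20 and 1.15) and 2407.5 bp (4.36 and 4.45), and for Nfix at 848.5 bp (2.49 and 1.73) and 5663.5 bp (3.75 and 3.12). For the 50 kb limit, the farthest assigned site outside a gene body was 26733.5 bp upstream of Nfia (4.11 and 4.31). The nearest one left out was 52260.5 bp from Nfib (2.33 and 1.54).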

How the data were processed

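Open chromatin was measured by DNase-seq in 2 libraries of 1 group, so no test was made. Per the labels the assembly was mm10 and replicates were separate; the aligner, and the programs that called peaks and footprints, were not given in the sources used here. In the deposited peak lists, the authors' signal per peak has no stated scaling, so ratios were centred. The deposited per-base values are p-values adjusted to a false discovery rate (q-values), kept below 0.05. The depth of each library in reads is unknown. The strict list, with fewer peaks per library (87558 and 79562), was used, with the permissive one (142031 and 133321) as an alternative.

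Peaks overlapping by 1 bp were merged and kept when both replicates had one. Starts and bodies came from GENCODE M21, and sequences from the RefSeq mm10 genome. Sequences leave out annotated UTRs. Rules for named items covered every start group, the 5 strongest distal sites per gene and every loose palindrome. The members and lists were chosen with earlier results of these data known. The spacing counts, sites with 3 or more half-sites and CTCF-like letters were added after seeing the data. Code ran in Python 3.11.15 with numpy 2.4.6 and pandas 2.3.3; merging and assignment were tested on simulated data. Intervals are Wilson 95%. A few genes of the lists are not reported here.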

Additional observations from a re-analysis of the deposited data

How the results depend on the processing

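Of 128 values recomputed under an alternative, 12 promoter signals could not move past the limit by construction (1 replicate left out, or stronger peaks only). Of the other 116, 102 stayed within 1.5 times the count, 1 SD between replicates or the interval of the value reported. Some of these could not move either. All distal sites of Nfib and Nfic lay inside the gene body, so a 20 kb limit or gene bodies alone had to give the same counts. Permissive lists gave 38 distal sites at Nfia and 46 at Nfib, and 78.8% of sites with a footprint in both replicates. The stronger 50% of strict peaks gave 13 and 14 distal sites at Nfia and Nfib. A promoter window of 500 bp lowered the promoter signal to 4.53 at Nfib and 4.22 at Nfic, and one of 2500 bp raised that of Nfic to 10.7, since the strong site upstream then counts as promoter. Starts joined within 100 bp gave 2 open groups of 3 at Nfib and 5 of 5 at Nfix. Among changes inside the 1.5-fold limit, the 500 bp window gave 2 of 3 at Nfix. Permissive lists, and replicate 2 alone, gave 4 of 4 at Nfic. Starts of every gene biotype gave 5 open groups of 6 at Nfix, as did starts of all transcripts of protein-coding genes, an alternative chosen after seeing the data. With 1 replicate left out, distal counts ranged from 27 to 32 at Nfia, 32 to 35 at Nfib, 34 to 45 at Nfic and 32 to 40 at Nfix, each counting every peak of the library kept. No paired analysis was possible because there was 1 group. Depth limits what a missing peak or footprint can show, and the cause of each shift other than these was not tested.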

Other observations

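Sites with 4 or more NFI half-sites outside the family were rare and of all strengths. The 13 had their nearest starts at Hes6, Cacnb4, Bcl10, Pm20d2, Cdk6, Ninj2, Fat3, Mthfd1l, Tcf3, Anks1b, Map3k3, Zfp706 and L3mbtl2. The strongest, nearest to Map3k3, a kinase of the MAP kinase pathway, had a signal of 22.4 and 17.0. The site nearest to Tcf3, which encodes the E proteins that pair with the myogenic factors, had 1.46 and 1.32. The site in Anks1b was the one with 5 half-sites, at 1.81 and 1.03. These genes were named after the values were seen.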
